A study of Homo sapiens with 6 samples.

Results

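The translation initiation factor genes are the protein-coding genes whose symbols begin with EIF1 to EIF6, without the EIF2AK kinase genes. The deposited count table held 50 such genes among 30403 genes in all, and 4 EIF2AK genes were left out by that choice. The choice used names only, but the family was picked with earlier results of the same comparison known, so that the values here describe the family and test nothing about it as a whole. One member, EIF2S3L, had 1 count in 1 shCtrl library and none in the other libraries, and it was not tested. The other 49 passed the filter on low counts.

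RNA was sequenced from HK-2 cells, an established human kidney line made from proximal tubule cells and immortalised with papillomavirus genes. The 3 shPARP1 libraries came from cells transfected with a plasmid for an shRNA against PARP1, which encodes poly(ADP-ribose) polymerase 1. The 3 shCtrl libraries came from cells given a control shRNA plasmid, and both groups received Lipofectamine 2000 and were harvested after 48 h. The labels give no shRNA sequence, no selection of transfected cells and no statement that the replicates were separate cultures. The p-values therefore rest on differences among 3 libraries a group that may be technical repeats.

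Initiation factors bring the small ribosomal subunit, the initiator tRNA and the capped mRNA together, guide the scan to the start codon and let the large subunit join. eIF2 carries the initiator tRNA and is reloaded with GTP by eIF2B, eIF3 is a many-subunit scaffold on the small subunit, and eIF4F, made of the cap-binding protein eIF4E, the helicase eIF4A and the scaffold eIF4G, recruits the mRNA. The 4E-binding proteins hold eIF4E away from eIF4G until mTOR complex 1 phosphorylates them. Many mRNAs of the translation machinery start with a C followed by a run of pyrimidines, a feature known as the terminal oligopyrimidine motif, through which mTOR acts on their translation.

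The first bases of 9 members hold such a start, and they are shown because they include members that were higher and members that were lower in shPARP1 cells. Each line gives 10 bases before and 20 bases from a transcript start that RefSeq annotates for the gene on GRCh38.p14, written on the gene's own strand. The pyrimidine run from that start is in capitals, and a gene may have other annotated starts. The 4 members called higher come first, then the 4 called lower, then EIF2D, which was not called.
EIF3F (chr11:7987327-7987356, plus strand): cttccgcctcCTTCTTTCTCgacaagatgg
EIF2A (chr3:150546777-150546806, plus strand): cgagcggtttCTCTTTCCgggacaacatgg
EIF3K (chr19:38619178-38619207, plus strand): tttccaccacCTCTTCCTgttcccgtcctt
EIF3M (chr11:32583821-32583850, plus strand): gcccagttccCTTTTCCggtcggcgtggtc
EIF4B (chr12:53006446-53006475, plus strand): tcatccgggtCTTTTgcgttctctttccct
EIF2S3 (chrX:24054946-24054975, plus strand): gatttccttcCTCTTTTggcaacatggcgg
EIF4A2 (chr3:186783567-186783596, plus strand): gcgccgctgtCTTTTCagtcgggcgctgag
EIF3D (chr22:36529147-36529176, minus strand): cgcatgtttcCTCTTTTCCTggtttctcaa
EIF2D (chr1:206612446-206612475, minus strand): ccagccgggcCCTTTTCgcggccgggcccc

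A second set of sequences shows why one member's value is uncertain. EIF5A carries hypusine, a modified lysine made on no other protein family, and the lines give the coding bases 136 to 165 around codon 50, the modified lysine, in capitals, from GENCODE release 29 on GRCh38.
EIF5A: tcgaagactggcAAGcacggccacgccaag
EIF5AL1: tcgaagactggcAAGcacggccacgccaag
EIF5A2: tccaaaactggaAAGcatggtcatgccaag
EIF5A and EIF5AL1 are identical over this stretch, and EIF5A2 differs from EIF5A at 6 of its bases. Over the coding sequence, EIF5A and EIF5AL1 shared 98.9% of aligned bases, with 5 differing positions and an identical run of 192 bases. EIF5A and EIF5A2 shared 71.0%. EIF3C and EIF3CL shared 99.9%, with 3 differing positions and an identical run of 1869 bases. How reads that match both genes of a pair were counted is not given in the sources used here, so the counts of EIF5AL1, EIF3C and EIF3CL are uncertain.

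Library totals were 29387853 to 32809303 counts in shPARP1 and 24429683 to 26269194 in shCtrl, where 3 counts correspond to 0.0914 to 0.123 CPM (counts scaled to the library size). PARP1 itself averaged 27.3 ± 1.37 CPM in shPARP1 and 261 ± 2.37 CPM in shCtrl (SD, n = 3 each), a log2 fold change of -3.26 (SE 0.04), and no libraries overlapped. Of 15 proximal tubule markers, 5 reached 1 FPKM (fragments scaled to library size and transcript length), among them PAX8 and CDH6, while the transporter genes SLC34A1 and SLC22A6 and the regulator HNF4A were at or near 0. Marker sums moved with the groups, at 197 to 203 FPKM in shPARP1 and 258 to 268 FPKM in shCtrl for the proximal tubule, and at 474 to 485 FPKM in shPARP1 and 386 to 398 FPKM in shCtrl for 5 epithelial genes, of which KRT8, KRT18 and KRT19 were called higher, CDH1 was called lower and EPCAM was not called. Summed fibroblast markers lay at 2.39 to 2.83 FPKM in shPARP1 and 4.61 to 5.57 FPKM in shCtrl. Leukocyte markers summed to 9.58 to 10.46 FPKM in shPARP1 and 12.24 to 13.01 FPKM in shCtrl, with CD3E near 0. Most of that sum was in CD14 and CSF1R, which were called lower, and in CD68, which was called higher. Endothelial markers did not exceed 0.05 FPKM in either group. The part of these markers in the results was not tested. In bulk RNA, fewer cells of a type and less RNA per cell cannot be told apart.

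Most of the family was higher in shPARP1 cells. With edgeR's quasi-likelihood test, at a Benjamini-Hochberg adjusted p under 0.05 over all 16040 genes tested, 30 members were called higher, 8 were called lower and 11 were not called. That made 61.2% of the tested members called higher and 16.3% called lower, where among all genes tested 27.3% were called higher, 28.5% lower and 55.7% in either direction. Because the family was picked on this comparison, these shares are a description. The median log2 fold change (shPARP1 over shCtrl, here and throughout) was 0.32 over the tested members and -0.01 over all genes tested. With an offset for exon length and GC content these medians were 0.33 and 0.03.

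Changes were small. The members ran from -0.59 to 1.19 on the log2 scale, and only EIF4A1 and EIF5AL1 were called at 2-fold or more, which 2.41% of all genes tested were in the same direction. The SEs of the log2 fold changes were 0.03 to 0.35. The SD of CPM as a percent of the group mean, taken in the group where it was larger, had a median of 5.17% over the tested members. In 30 members all shPARP1 libraries lay above all shCtrl libraries, which held for 29.7% of all genes tested, and in 7 members all lay below, which held for 30.4%. The other 12 tested members had overlapping groups. Counts thinned to the smallest library total also gave 30 members called higher and 8 called lower. Summed over the family, the deposited values came to 2814 ± 20.7 FPKM in shPARP1 and 2034 ± 24.3 FPKM in shCtrl (SD, n = 3 each). EIF5A alone made up 729 FPKM of the sum in shPARP1 and 392 FPKM in shCtrl.

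**Figure D1:**
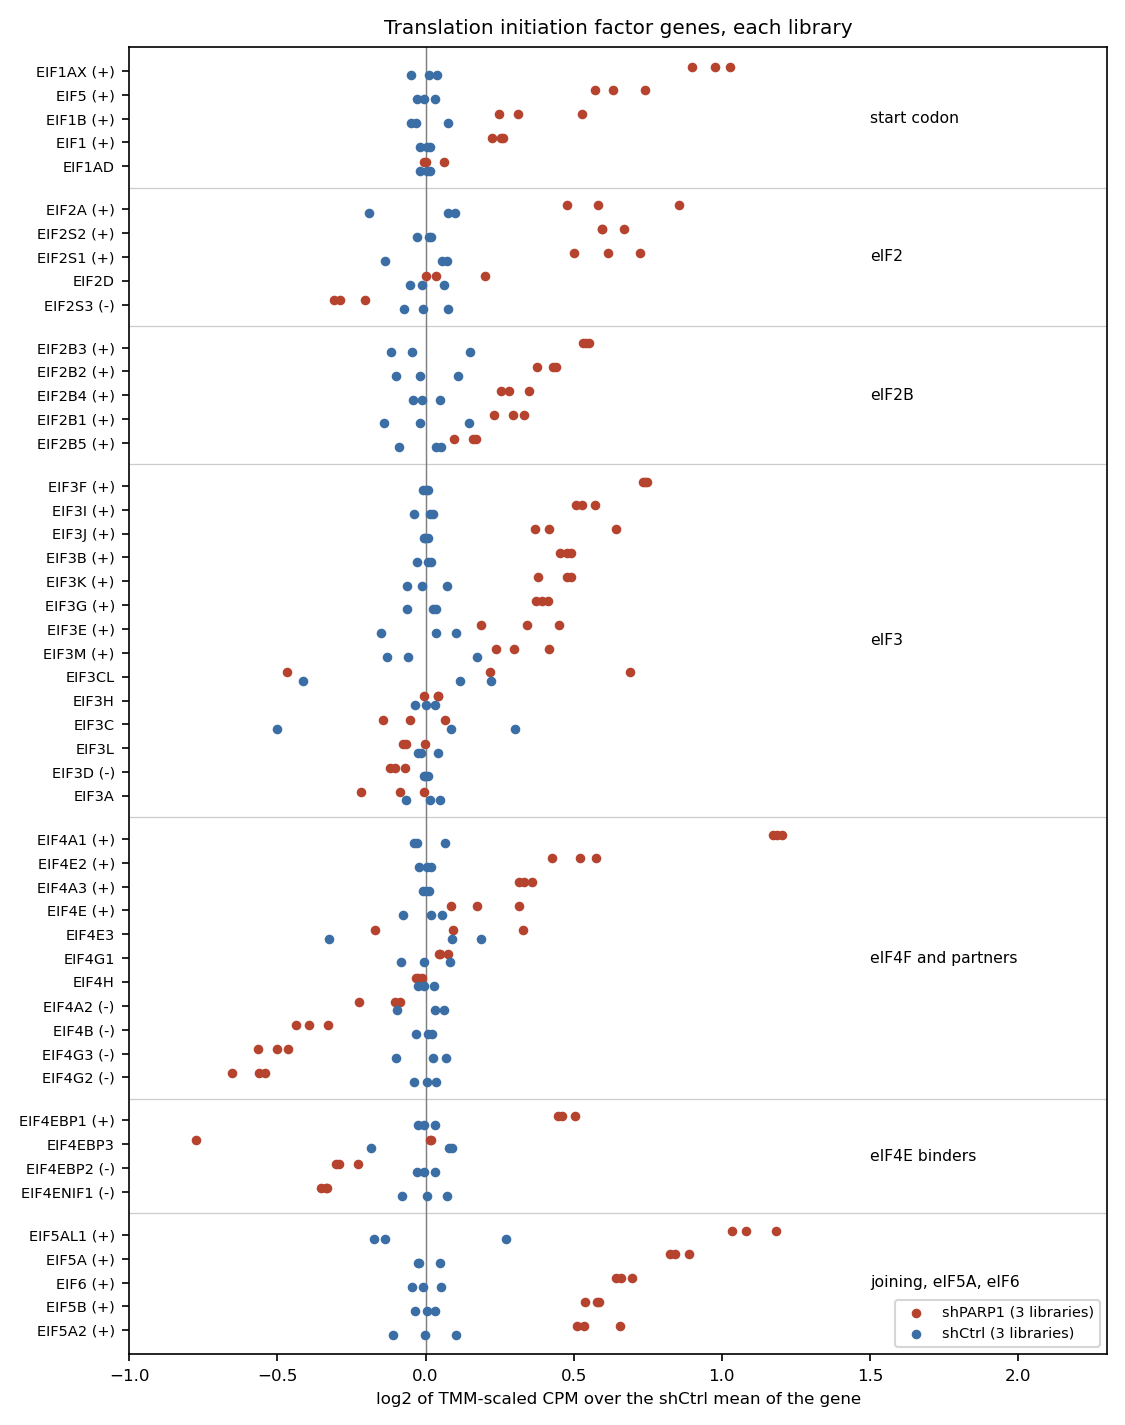
Each point is 1 library, plotted as the log2 of the gene's TMM-scaled CPM over its shCtrl mean, with genes grouped by role and ordered by fold change; + and - after a symbol mark genes called higher and lower by edgeR's quasi-likelihood test. The shPARP1 points lie right of all shCtrl points for all 5 eIF2B genes and all 5 genes of the joining, eIF5A and eIF6 group, and on both sides in the eIF4F group.

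The genes of factors that select the start codon, with their relatives, were mostly higher. Of 5 genes, 4 were called higher and none lower, with a median log2 fold change of 0.37. EIF1AX, which encodes the eIF1A that holds the scanning ribosome open, had 50.6, 53.3 and 55.3 CPM in shPARP1 libraries, against 27.3, 27.9 and 26.2 CPM in shCtrl libraries. The groups were far apart, and its log2 fold change of 0.97 (SE 0.06, edgeR adjusted p = 4.70e-21) was the third largest of the family. EIF5, the GTPase-activating partner of eIF2, was higher by 0.65, at 9.91 ± 0.60 FPKM in shPARP1 and 6.13 ± 0.17 FPKM in shCtrl (SD, n = 3 each). EIF1, which guards against wrong start codons, was higher by only 0.25, although at 205 ± 2.60 FPKM in shPARP1 and 168 ± 3.68 FPKM in shCtrl its level was much the highest of the group. Its close relative EIF1B was higher by 0.37 at a level of 14.8 ± 1.57 FPKM in shPARP1 and 11.1 ± 0.67 FPKM in shCtrl. With the length and GC offset that value was 0.15 and the call was lost (edgeR adjusted p = 0.121). EIF1 supplied 93.3% of the summed FPKM of the pair in shPARP1 and 93.8% in shCtrl. EIF1AD, counted here only as a relative, was not called, at 8.55 ± 0.19 FPKM in shPARP1 and 8.18 ± 0.18 FPKM in shCtrl.

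The RNAs of the 3 subunits of eIF2 did not move together. EIF2S1, the alpha subunit that stress kinases phosphorylate, had 52.3, 56.6 and 61.0 CPM in shPARP1 libraries, against 33.6, 38.4 and 38.8 CPM in shCtrl libraries. All shPARP1 libraries were above all shCtrl libraries, with a log2 fold change of 0.61 (SE 0.06, edgeR adjusted p = 3.71e-13). EIF2S2, the beta subunit, was higher by 0.62, at 39.1 ± 1.26 FPKM in shPARP1 and 24.7 ± 0.73 FPKM in shCtrl. EIF2S3, the gamma subunit that binds GTP and the initiator tRNA, went the other way, with 66.0, 65.1 and 70.0 CPM in shPARP1 libraries against 76.7, 85.0 and 80.2 CPM in shCtrl libraries. Its groups did not overlap, and its log2 fold change was -0.27 (SE 0.05, edgeR adjusted p = 2.21e-06). As shares of the summed FPKM of the 3 subunit genes, EIF2S3 held 30.1% ± 0.31 in shPARP1 and 44.3% ± 0.77 in shCtrl, and EIF2S2 held 56.1% ± 0.45 in shPARP1 and 44.7% ± 0.94 in shCtrl (SD, n = 3 each). EIF2S1 held 13.8% in shPARP1 and 11.1% in shCtrl. EIF2A and EIF2D, which can bring initiator tRNA to ribosomes without eIF2, also differed from each other. EIF2A was higher by 0.65, at 6.88 ± 0.97 FPKM in shPARP1 and 4.26 ± 0.42 FPKM in shCtrl. EIF2D was not called, at 14.97 ± 1.15 FPKM in shPARP1 and 13.7 ± 0.72 FPKM in shCtrl, except with the length and GC offset, which gave 0.17 (edgeR adjusted p = 0.0114).

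All 5 genes of eIF2B were called higher. eIF2B exchanges the GDP on eIF2 for GTP, and it is the enzyme that phosphorylated eIF2 blocks. The largest change was in EIF2B3, the gamma subunit, at 9.05 ± 0.05 FPKM in shPARP1 and 6.04 ± 0.66 FPKM in shCtrl, a log2 fold change of 0.54. The regulatory beta subunit gene EIF2B2 followed at 0.42, with 7.07 ± 0.15 FPKM in shPARP1 and 5.14 ± 0.35 FPKM in shCtrl. The delta subunit gene EIF2B4 had 15.7 ± 0.58 FPKM in shPARP1 and 12.4 ± 0.54 FPKM in shCtrl, and the alpha subunit gene EIF2B1 had 9.21 ± 0.30 FPKM in shPARP1 and 7.33 ± 0.83 FPKM in shCtrl, each higher by 0.29. EIF2B5, the catalytic epsilon subunit, changed least, at 18.3 ± 0.47 FPKM in shPARP1 and 16.05 ± 0.88 FPKM in shCtrl, a log2 fold change of 0.14 (SE 0.05, edgeR adjusted p = 0.00901). Without shCtrl replicate 3 EIF2B5 was not called (0.10, edgeR adjusted p = 0.108), and with the length and GC offset its value was 0.29. The median of the 5 genes was 0.29.

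In eIF3, the large scaffold, 8 of 14 genes were called higher, 1 lower and 5 were not called, with a median of 0.32. EIF3F, a subunit with an MPN fold, had 241, 242 and 240.1 CPM in shPARP1 libraries, against 144, 143 and 145 CPM in shCtrl libraries. Each library lay within 1 CPM of its group mean, and the log2 fold change was 0.74 (SE 0.04, edgeR adjusted p = 2.77e-25). EIF3I and EIF3G, which with the core subunit EIF3B form the module that reaches the mRNA entry side, were higher by 0.54 and 0.39, and EIF3B by 0.47. These genes were among the most abundant of the group per length, EIF3I at 239.5 ± 5.53 FPKM in shPARP1 and 160.2 ± 4.33 FPKM in shCtrl, EIF3G at 181 ± 2.59 FPKM in shPARP1 and 134 ± 5.37 FPKM in shCtrl, and EIF3B at 116 ± 1.31 FPKM in shPARP1 and 80.8 ± 2.02 FPKM in shCtrl. EIF3J, a loosely bound subunit near the decoding site, was higher by 0.48, at 9.41 ± 1.01 FPKM in shPARP1 and 6.53 ± 0.12 FPKM in shCtrl. EIF3K was higher by 0.45, at 106 ± 4.23 FPKM in shPARP1 and 75.5 ± 2.63 FPKM in shCtrl. EIF3E was higher by 0.33, at 34.7 ± 3.22 FPKM in shPARP1 and 26.8 ± 2.59 FPKM in shCtrl, and EIF3M by 0.32, at 7.82 ± 0.52 FPKM in shPARP1 and 6.08 ± 0.69 FPKM in shCtrl. Among the 8 genes called higher, the SE was largest relative to the change in EIF3M and EIF3E.

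The remaining eIF3 genes gave small or uncertain differences. EIF3A, the largest core subunit, was not called at -0.10, with 9.38 ± 0.72 FPKM in shPARP1 and 9.76 ± 0.27 FPKM in shCtrl. It was called lower with thinned counts, with the replicate number as a block and without shPARP1 replicate 3. EIF3L was not called, at 38.0 ± 1.16 FPKM in shPARP1 and 38.1 ± 1.48 FPKM in shCtrl. EIF3H, an MPN subunit like EIF3F, was not called either, at 17.7 ± 0.40 FPKM in shPARP1 and 16.9 ± 0.53 FPKM in shCtrl. EIF3D, a subunit that can bind the cap of some mRNAs, was called lower by a small amount, at 138 ± 2.55 CPM in shPARP1 and 147 ± 0.85 CPM in shCtrl, a log2 fold change of -0.10 (SE 0.04, edgeR adjusted p = 0.0279). That call was lost under 8 alternatives, and over every alternative run the adjusted p was 0.0116 to 0.386. The near-identical EIF3C and EIF3CL were not called. EIF3C had 8.50, 7.97 and 9.23 CPM in shPARP1 libraries, against 10.9, 9.36 and 6.23 CPM in shCtrl libraries, where the spread within shCtrl was wider than the difference between the groups. EIF3CL had 0.31 ± 0.12 FPKM in shPARP1 and 0.26 ± 0.05 FPKM in shCtrl.

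**Figure D2:**
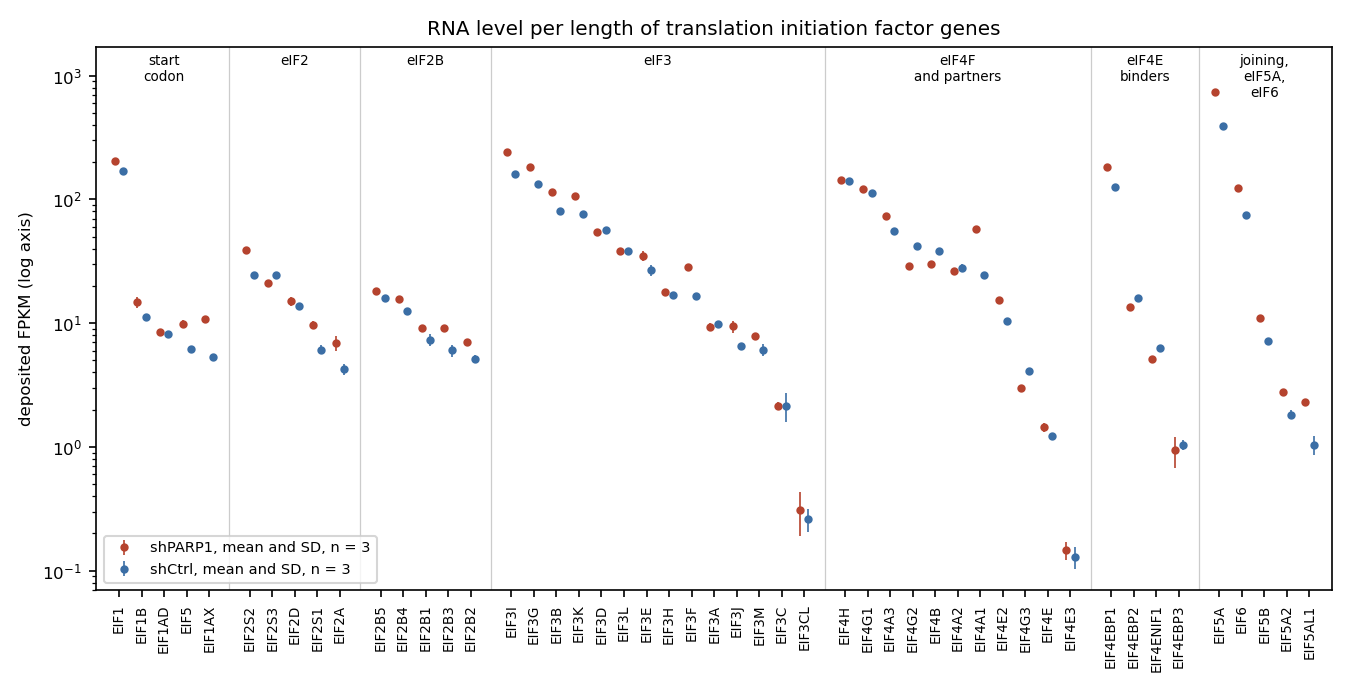
Points are mean deposited FPKM per gene on a log axis with the SD over 3 libraries as bars, shPARP1 left of shCtrl, grouped by role and ordered by the shCtrl level within a role. EIF5A, at 729 FPKM in shPARP1 and 392 FPKM in shCtrl, is the highest point in both groups, and EIF3CL and EIF4E3 lie lowest.

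The genes of eIF4F, their paralogs and their partners were split. Of these 11 genes, 4 were called higher, 4 lower and 3 were not called, with a median of 0.06. EIF4A1, the main helicase of eIF4F, had 114, 112 and 111 CPM in shPARP1 libraries, against 48.0, 51.7 and 48.4 CPM in shCtrl libraries. This was the largest change of the family, with a log2 fold change of 1.19 (SE 0.05, edgeR adjusted p = 5.17e-30). The locus, chr17:7572706-7579005 on the plus strand, is also covered by the readthrough gene SENP3-EIF4A1, whose exons cover 29.8% of the EIF4A1 exon bases. That readthrough gene was listed with far more counts, at 1079.6 ± 24.5 CPM in shPARP1 and 577 ± 5.41 CPM in shCtrl, so that EIF4A1 held only 7.69% to 9.60% of the summed counts of the pair. Counted together, an alternative added after seeing the data, the pair had a log2 fold change of 0.93 (SE 0.03, edgeR adjusted p = 1.45e-33). Another overlapping gene, RP11-186B7.4, which covers 41.1% of the EIF4A1 exon bases, was lower, at -0.45 on the log2 scale.

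The 3 genes of the eIF4A family changed in different directions. EIF4A3, a helicase of the exon junction complex, was higher by 0.34, at 72.8 ± 1.32 FPKM in shPARP1 and 56.0 ± 0.71 FPKM in shCtrl. EIF4A2, a second eIF4F helicase, had 53.1, 58.5 and 57.7 CPM in shPARP1 libraries, against 58.0, 63.3 and 64.7 CPM in shCtrl libraries. One shPARP1 library lay above the lowest shCtrl library, and the call at -0.14 (SE 0.05, edgeR adjusted p = 0.0186) was lost under 8 alternatives. Over every alternative run, the adjusted p was 0.00435 to 0.222. EIF4A1 held 36.7% ± 0.78 of the summed FPKM of the 3 genes in shPARP1 and 22.5% ± 0.62 in shCtrl, and EIF4A2 held 16.8% ± 0.71 in shPARP1 and 25.8% ± 1.12 in shCtrl (SD, n = 3 each). With the readthrough gene in the sum, EIF4A1 held 13.3% in shPARP1 and 9.74% in shCtrl, the readthrough gene 63.7% in shPARP1 and 56.8% in shCtrl, and EIF4A2 6.10% in shPARP1 and 11.2% in shCtrl. EIF4A2 thus had a lower share in shPARP1 on either count. EIF4B, a cofactor of the helicase, had 135, 139 and 145 CPM in shPARP1 libraries, against 179, 184 and 185 CPM in shCtrl libraries, with no overlap and a log2 fold change of -0.39 (SE 0.04, edgeR adjusted p = 5.34e-13). The related cofactor EIF4H was not called, at 143 ± 1.36 FPKM in shPARP1 and 141 ± 4.22 FPKM in shCtrl.

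The 2 largest falls of the family were among the eIF4G scaffold genes. EIF4G2, a relative of eIF4G that lacks the region binding eIF4E, had 139, 148 and 149.8 CPM in shPARP1 libraries, against 212, 223 and 219 CPM in shCtrl libraries. All shPARP1 libraries were below all shCtrl libraries, and the log2 fold change was -0.59 (SE 0.04, edgeR adjusted p = 4.78e-20). EIF4G3, a full-length scaffold of low level, fell likewise to 22.2, 23.2 and 23.8 CPM in shPARP1 libraries, against 34.4, 30.7 and 33.4 CPM in shCtrl libraries, a log2 fold change of -0.51 (SE 0.07, edgeR adjusted p = 6.15e-09). EIF4G1, the main scaffold, had 867, 883 and 865 CPM in shPARP1 libraries, against 888, 791 and 836 CPM in shCtrl libraries. Its groups overlapped, because shCtrl replicate 1 was the highest library of all, and at 0.06 (SE 0.03, edgeR adjusted p = 0.139) it was not called. Without that library its value was 0.10 (edgeR adjusted p = 0.0106), and with the length and GC offset it was 0.22 (edgeR adjusted p = 1.60e-11). It was also called higher with library totals only, log2(FPKM + 1) and log2(FPKM + 0.1). That made 5 alternatives in all. EIF4G1 held 79.1% ± 0.65 of the summed FPKM of the 3 scaffolds in shPARP1 and 70.8% ± 1.58 in shCtrl, and EIF4G2 held 19.0% ± 0.60 in shPARP1 and 26.6% ± 1.63 in shCtrl (SD, n = 3 each).

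Among the genes of cap-binding proteins, EIF4E2 was higher by 0.51 (SE 0.05, edgeR adjusted p = 2.36e-14). It encodes a protein that binds the cap and is known for repressing translation. Its RNA level was 15.3 ± 0.79 FPKM in shPARP1 and 10.5 ± 0.30 FPKM in shCtrl. EIF4E, the cap-binding subunit of eIF4F, had 18.2, 19.3 and 21.3 CPM in shPARP1 libraries, against 17.3, 16.2 and 17.8 CPM in shCtrl libraries. The lowest shPARP1 library lay barely above the highest shCtrl library, and the log2 fold change was 0.19 (SE 0.08, edgeR adjusted p = 0.0414). This call was lost under 8 alternatives, and over every alternative run the adjusted p was 0.000594 to 0.239. EIF4E3 was not called, at 0.147 ± 0.025 FPKM in shPARP1 and 0.13 ± 0.026 FPKM in shCtrl. Per length, EIF4E held only 8.56% of the summed FPKM of the 3 genes in shPARP1 and 10.4% in shCtrl, but the deposited FPKM of EIF4E implies a length of 13673 bases, so its low share depends on the transcript length that the authors used, which is not given in the sources used here.

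**Figure D3:**
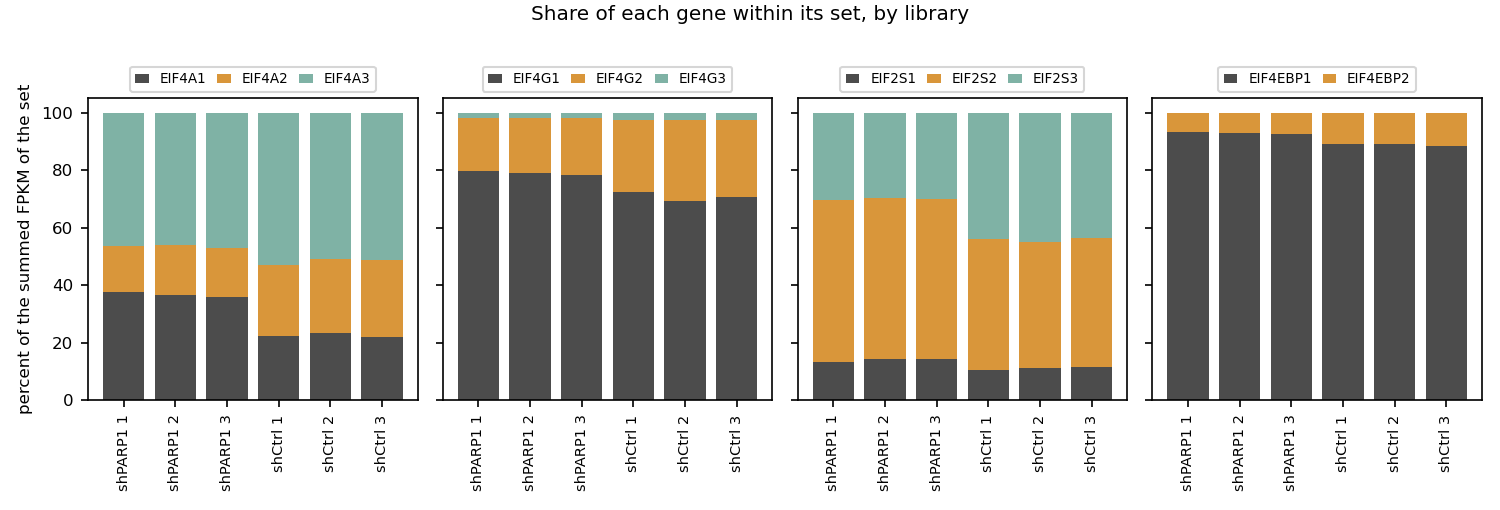
Each bar is 1 library and shows the percent of the summed FPKM that each gene holds within its set, with the shPARP1 libraries left of the shCtrl libraries; the eIF4A panel is without the readthrough gene. In all 3 shPARP1 libraries EIF4A1, EIF4G1, EIF2S2 and EIF4EBP1 hold larger shares, and EIF4A2, EIF4G2, EIF2S3 and EIF4EBP2 smaller ones, than in any shCtrl library.

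The genes of the proteins that hold eIF4E away from eIF4G moved in opposite directions at the RNA level. Protein and its phosphorylation were not measured here. EIF4EBP1 had 211, 205 and 203 CPM in shPARP1 libraries, against 152, 148 and 146 CPM in shCtrl libraries, a log2 fold change of 0.47 (SE 0.04, edgeR adjusted p = 1.19e-16). EIF4EBP2 had 108, 109 and 113 CPM in shPARP1 libraries, against 132, 130.2 and 136 CPM in shCtrl libraries, a log2 fold change of -0.27 (SE 0.04, edgeR adjusted p = 4.48e-08). Neither gene's groups overlapped. EIF4EBP1 held 93.0% ± 0.29 of the summed FPKM of this pair in shPARP1 and 88.9% ± 0.34 in shCtrl (SD, n = 3 each). EIF4ENIF1, which carries eIF4E into the nucleus and joins it to mRNA repression, had 21.6, 21.9 and 22.0 CPM in shPARP1 libraries, against 29.1, 26.2 and 27.8 CPM in shCtrl libraries. It was lower in every shPARP1 library than in any shCtrl library, with a log2 fold change of -0.34 (SE 0.07, edgeR adjusted p = 5.01e-05), a value that was -0.21 with the length and GC offset. EIF4EBP3 was not called, at 0.937 ± 0.27 FPKM in shPARP1 and 1.04 ± 0.10 FPKM in shCtrl, and 73.4% of its exon bases lie within the readthrough gene ANKHD1-EIF4EBP3. The 4 genes had a median of -0.24, with 1 called higher, 2 lower and 1 not called.

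The genes of subunit joining, eIF5A and eIF6 were all called higher, with a median of 0.67 over 5 genes. EIF5A, which helps ribosomes pass slow peptide bonds, had 1752, 1695 and 1675 CPM in shPARP1 libraries, against 931, 929 and 978 CPM in shCtrl libraries. It had the highest level of the family by far, at 729 ± 14.9 FPKM in shPARP1 and 392 ± 11.7 FPKM in shCtrl (SD, n = 3 each). Its log2 fold change was 0.85 (SE 0.03, edgeR adjusted p = 5.61e-32). GPS2, on the opposite strand, overlaps 8.56% of the EIF5A exon bases and was higher by 0.72 at 45.4 ± 1.36 FPKM in shPARP1 and 26.8 ± 0.65 FPKM in shCtrl. EIF5AL1 had 9.77, 10.5 and 9.47 CPM in shPARP1 libraries, against 4.09, 4.20 and 5.57 CPM in shCtrl libraries, a log2 fold change of 1.10 (SE 0.12, edgeR adjusted p = 2.89e-11). Its coding sequence, part of which is shown above, is nearly that of EIF5A, which had far more counts. On the log2(FPKM + 1) scale its change was 0.70. EIF5A2, which the sequence separates better, was higher by 0.57 at 2.79 ± 0.16 FPKM in shPARP1 and 1.83 ± 0.15 FPKM in shCtrl.

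EIF6, which keeps free large subunits from joining too early, had 229, 224 and 221 CPM in shPARP1 libraries, against 147, 137 and 141 CPM in shCtrl libraries. The groups were well apart, with a log2 fold change of 0.67 (SE 0.04, edgeR adjusted p = 1.20e-22). RP4-614O4.11, a gene on the same strand, shares 17.4% of the EIF6 exon bases and was higher by 0.69. EIF5B, the GTPase that joins the subunits, was higher by 0.57 at 11.1 ± 0.17 FPKM in shPARP1 and 7.23 ± 0.08 FPKM in shCtrl.

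Overlaps of this kind were common. Of the 50 members, 8 share exon bases with a gene on the same strand and 25 with a gene on the opposite strand in GENCODE release 29. The strand setting of the authors' counting is not given in the sources used here, so reads of opposite-strand neighbours may not have been separated. The members lie on 18 chromosomes, and EIF4A1 and EIF5A, both among the largest rises, lie on chromosome 17 with 260242 bases between them. Across the 49 tested members, the log2 fold change had a Spearman rho of -0.24 with exon length, -0.08 with GC content and -0.09 with the shCtrl level, as a description over genes that share the same 6 libraries. Members had a median exon length of 5341 bases, against 4491 bases for all genes tested, and a median level of 49.4 CPM in shCtrl, against 10.5 CPM.

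Members with a pyrimidine start were called in both directions. Of the 41 members matched to RefSeq start windows, 9 (22.0%) had a C at an annotated first base followed by at least 4 further pyrimidines. The same start was found in 832 of 12254 protein-coding genes of the table (6.79%) and in 43 of 63 cytosolic ribosomal protein genes (68.3%). In the 9 members with that start, 4 were called higher, 4 lower and 1 was not called. Of those called lower, EIF4A2 and EIF3D each lost the call under 8 alternatives. The 9 members had a median log2 fold change of 0.08 and a range of -0.39 to 0.74. In the other 32 members with windows, 22 were called higher, 4 lower and 6 were not called, with a median of 0.35. The rule looked only at annotated first bases, and not all ribosomal protein genes met it. These 32 may therefore include members whose RNA begins with pyrimidines nearby. EIF3A, EIF3E, EIF3G, EIF3H and EIF3L were among the members without windows. The difference between the medians was not tested. The longest runs, in EIF3F and EIF3D, belonged to genes with log2 fold changes of 0.74 and -0.10.

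**Figure D4:**
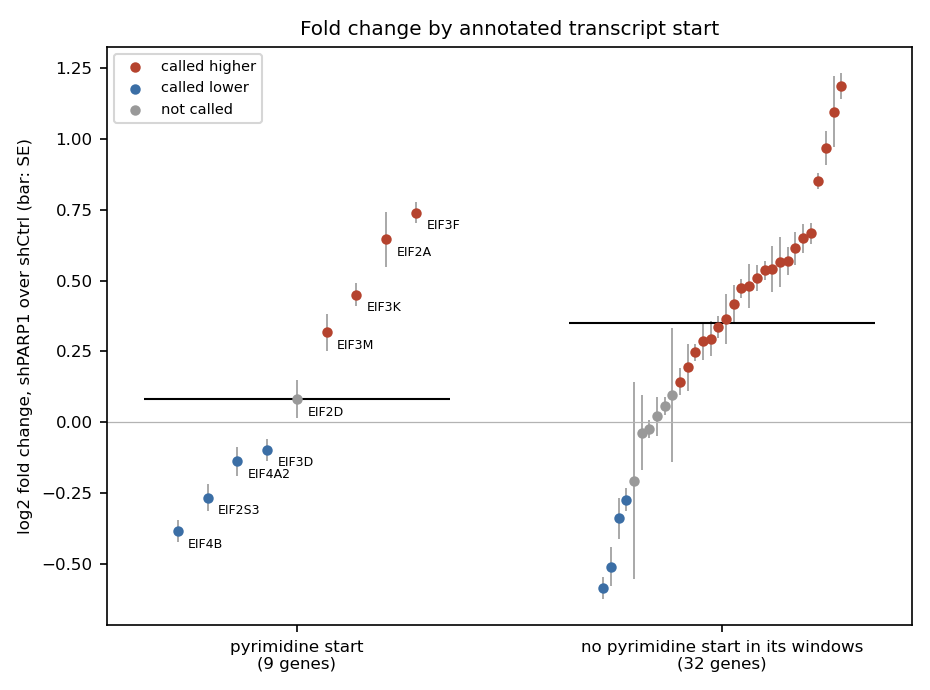
Each point is the log2 fold change (shPARP1 over shCtrl) of 1 member with its SE, split by whether an annotated first base starts a pyrimidine run, with the group median as a horizontal line. The 9 genes with such a start lie on both sides of 0 with a median of 0.08, and the other 32 have a median of 0.35.

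Other short motifs were counted on both strands of the 300 bases around each start, and none of the 3 motifs contains another. A gene counted if any of its windows held the motif. The E-box CACGTG was found for 11 of 41 members (26.8%) and for 11.7% of all protein-coding genes with windows. The ETS-type motif CCGGAAG was found for 11 members (26.8%) and for 18.9% of those genes. The TATA-box letters TATAAA were found for 2 members (4.88%) and for 9.62% of those genes. These are matches of letters and not binding data.

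Genes that control or follow initiation were counted in fixed lists, each also chosen with earlier results known. Their counts stand beside the 27.3% of all genes tested that were called higher and the 28.5% called lower, and nothing particular to a list is read from them. Of 17 genes of the eIF2 kinases and the integrated stress response, 7 were called higher, 4 lower and 6 were not called, with a median of 0.02. TRIB3, a stress-induced pseudokinase, was higher by 0.67, PPP1R15A, the subunit that directs a phosphatase to eIF2 alpha, by 0.60, and DDIT3, a stress transcription factor, by 0.73. SESN2, a leucine sensor upstream of mTOR complex 1, was lower, at -0.36. ATF4, the transcription factor that leads this response, was not called at -0.02.

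Among 15 genes of mTOR complex 1, MNK and S6 kinase control, 8 were called higher, 4 lower and 3 were not called, with a median of 0.14. MKNK2, a kinase of eIF4E, was higher by 0.91 (SE 0.04, edgeR adjusted p = 6.53e-29). AKT1S1, an inhibitory subunit of mTOR complex 1, was higher by 0.46, and RPS6, a ribosomal protein that S6 kinase phosphorylates, by 0.34. MTOR, the kinase itself, was lower, at -0.48. With the length and GC offset, RPS6 was at 0.20 and MTOR at -0.28.

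The other steps of translation gave these counts, again beside 27.3% of all genes tested called higher and 28.5% called lower. Of 18 accessory initiation genes, 3 were called higher, 5 lower and 10 were not called, with a median of -0.03. ANGEL1, which binds eIF4E, was lower, at -1.05. MCTS1, which works with DENR in reinitiation, was higher by 0.69, and the poly(A)-binding protein gene PABPC4 by 0.20. Of 12 elongation genes, 5 were called higher and 2 lower, with a median of 0.02. EEF1A2 and EEF1D, which serve tRNA delivery, were higher by 0.52 and 0.51. GTPBP2, a GTPase that rescues stalled ribosomes, and EEF2K, the kinase that inhibits eEF2, were lower, at -0.27 and -0.30, and EEF2K was at -0.14 with the length and GC offset.

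Of 7 termination and recycling genes, 5 were called higher and none lower, with a median of 0.37. They were led by GSPT1, the release factor GTPase, at 0.54, TRMT112, a partner of methyltransferases, at 0.44 (0.29 with the length and GC offset), the release factor gene ETF1 at 0.37 and the rescue factor gene PELO at 0.22. Both enzyme genes of hypusine synthesis were called higher, DOHH by 0.51 and DHPS by 0.13. That count was 1 with DESeq2, with no filter on low counts, and without shPARP1 replicate 1, shPARP1 replicate 2 or shCtrl replicate 3. Of 10 mitochondrial translation factor genes, 6 were called higher and none lower, with a median of 0.19, and the calls with the smallest p-values were TSFM at 0.37, MTFMT at 0.58, TUFM at 0.15 and MRRF at 0.21. With the length and GC offset TUFM was at 0.06 and MRRF at 0.33, and across alternatives 4 to 6 genes of this list were called higher. In these lists together, 36 of 80 tested genes were called higher and 15 lower, with a median of 0.10. Of all genes tested, 27.3% were called higher and 28.5% lower.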

How the data were processed

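Per the labels' protocols, polyadenylated RNA of 6 libraries was made into stranded libraries and sequenced in paired-end mode. GRCh38 as the build, and bcl2fastq, TopHat2 and edgeR as tools, come from the submitters' processing notes, which give no versions. Which program counted the reads, with which strand setting and annotation, is not given in the sources used here. The authors deposited whole read counts per gene, which were not normalized, and FPKM values rounded to 2 decimals.

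The deposited counts were fitted with edgeR 4.0.16 in R 4.3.3. Of the genes in the table, filterByExpr left 16040. After TMM scaling, the robust quasi-likelihood F test compared the groups, and a gene was called where its p, adjusted over all these genes by Benjamini and Hochberg, was under 0.05, whatever its fold. Values per library are TMM-scaled CPM or deposited FPKM, and the SE is the log2 fold change divided by the root of F. Replicates differed beyond sampling noise, with chi-square per degree of freedom of 2.54 to 4.55. Each library was counted as 1 replicate, but these values cannot show whether the libraries came from separate cultures. Gene positions and exon lengths were taken from GENCODE release 29 by identifier, with a match for 97.4% of genes, and start windows from RefSeq on GRCh38.p14. Sequence and table work used Python 3.11.15.

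The members, gene lists and tests were chosen with earlier results of these data known. The naming rule took PARP1, every member, library values for the 6 largest called rises and falls and for EIF4E, EIF4G1, EIF4A1, EIF2S1, EIF4EBP1, EIF5A and EIF6, and up to 4 called genes of each list by smallest p. One gene that the rule took is not reported here. Library values of EIF3C and EIF4A2, the overlapping genes and ATF4 were named outside it, after their values were seen. The test was tried on counts simulated for this comparison over 16040 genes, where it found 54% of the genes changed 1.25-fold and 70% of those changed 1.5-fold. It found 84% at 2-fold and 98% at 4-fold, and made 15 false calls. Alternatives were other scalings and filters, DESeq2 1.42.0, limma 3.58.1 (voom on counts, and its trend fit on FPKM logged with 1 or 0.1 added), thinned counts, a length and GC offset, a replicate block and fits without 1 library each.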

Additional observations from a re-analysis of the deposited data

How the results depend on the processing

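Across all alternatives, 29 to 31 members were called higher and 6 to 9 lower, and 32 to 39 genes of the other translation lists were called higher and 14 to 15 lower. The median member log2 fold change was 0.36 with log2(FPKM + 1), 0.37 with log2(FPKM + 0.1) and 0.27 to 0.36 when 1 library was left out, against an SD of 0.04 between replicates. The median over all genes fitted was 0.03 with log2(FPKM + 1) and 0.05 with log2(FPKM + 0.1), against -0.01 in the main fit. EIF3CL and EIF4E3 had no value on the FPKM scales. The cause of these differences was not tested. Of PARP1 and the 49 tested members, 35 genes kept their direction and their side of the threshold under every alternative that gave a value, and no called gene changed sign. The deviations of same-numbered libraries had correlations of 0.036, -0.0042 and 0.036. For replicates 1 and 3 the best match in the other group had the same number, and for replicate 2 it did not. Whether the numbers mark a pairing was not tested. With the replicate block, 30 members were called higher and 9 lower, and 4443 of all genes tested were called higher and 4617 lower, against 4371 and 4566 without it.

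Changes of sign were all in genes that were not called, and their cause was not tested. EIF3C was 0.00089 with limma-voom, 0.017 with log2(FPKM + 1), 0.034 with log2(FPKM + 0.1) and 0.088 with the length and GC offset. EIF4H was 0.0070 with library totals only and 0.021 on both FPKM scales, and EIF3L was 0.023 with the offset. When 1 library was left out, values ran from -0.24 to 0.14 for EIF3C, -0.035 to 0.0038 for EIF4H, -0.00017 to 0.035 for EIF1AD, -0.089 to 0.48 for EIF3CL, -0.041 to 0.21 for EIF4E3 and -0.33 to 0.020 for EIF4EBP3. EIF3CL, EIF4EBP3 and EIF4E3 lay near the floor, at 0.486 to 2.04 CPM in each library, and their SEs were 0.24 to 0.35. The cause of their low counts was not tested.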

Other observations

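Outside the protein-coding family, the table listed 23 processed pseudogenes with EIF1 to EIF6 symbols. Only 2 of them passed the filter on low counts. The highest group means among them were those of EIF2S2P3, at 0.513 CPM in shPARP1 and 0.585 CPM in shCtrl.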
